A study of Mus musculus with 10 samples.

Results

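MiR-122 is the microRNA (miRNA) that fills hepatocytes, and it was followed here as 1 row of a table of 285 mature miRNAs, chosen by its name. The table covers 10 mouse liver libraries, 5 from livers labelled TSC1 mutant, described in the labels as L-Tsc1KO animals, and 5 from their littermate controls, all at 14 weeks of age. Each library was made from total RNA of a liver piece and read on an Illumina sequencer. The labels name neither the promoter that drives the knockout nor the sex or strain of the animals, which had free access to food, and Tsc1 RNA itself was not analysed here. Tsc1 encodes a subunit of the TSC complex, which restrains the growth-promoting kinase mTORC1.

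MiRNAs are short RNAs that guide Argonaute proteins to messenger RNAs through a seed at bases 2 to 8 and lower the output of those messengers. MiR-122 is made almost exclusively in hepatocytes, where liver transcription factors drive its gene. It represses genes that a mature hepatocyte keeps low, among them the cationic amino acid transporter Slc7a1 and the glycolytic enzyme Aldoa. Mice that lack it have low serum cholesterol and develop fatty liver, inflammation and liver tumours.

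The miRNAs that shared the library with miR-122 are shown because the size of its share is set against them. They are the 8 next most abundant miRNAs and miR-101a, with RefSeq mature sequences (GRCm38.p6) read 5′ to 3′ and the seed in capitals.
miR-21: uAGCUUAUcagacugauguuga
miR-192: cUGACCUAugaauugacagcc
miR-148a: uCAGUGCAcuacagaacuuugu
miR-30a: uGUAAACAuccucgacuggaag
let-7f: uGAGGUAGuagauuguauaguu
let-7g: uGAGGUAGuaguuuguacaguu
let-7a: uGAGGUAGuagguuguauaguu
miR-101b: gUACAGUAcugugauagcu
miR-101a: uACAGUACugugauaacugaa
The 3 let-7 members have the same seed, so their effects on targets overlap and reads may be shared between near-identical members. MiR-101a and miR-101b share a run of 15 bases that starts at base 1 of miR-101a and at base 2 of miR-101b as annotated. In the same annotation miR-21 lies at chr11:86584120-86584141 on the minus strand, miR-192 at chr19:6264857-6264877 on the plus strand and miR-148a at chr6:51269829-51269850 on the minus strand.

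The deposited values are normalised reads, that is, read counts divided by 1 factor per library. The libraries held between 6228497 and 12129069 reads of listed miRNAs. Control replicate 1 and TSC1 mutant replicate 1 stood apart from the other libraries, with high miR-21 and low let-7, and control replicate 2 had the highest biliary and striated muscle miRNAs. The share difference of miR-122, the spread of its normalised reads and its steadiest ratios are also given without some or all of these libraries. The library numbers of each genotype were consecutive, so handling order and genotype cannot be told apart.

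In the RefSeq annotation of GRCm38.p6 the gene Mir122 lies on chromosome 18 between the protein-coding genes Nedd4l and Alpk2 and overlaps the hairpin gene Mir122b. The table holds 1 product of this hairpin, listed as miR-122 with no arm given.

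MiR-122 was the most abundant miRNA in each of the 10 libraries. It took 24.1, 32.6, 36.1, 37.8 and 33.8% of the listed reads in control replicates 1 to 5. In TSC1 mutant replicates 1 to 5 it took 22.8, 32.6, 26.2, 31.9 and 32.7%. The highest shares were those of control replicates 4, 3 and 5, the lowest those of TSC1 mutant replicate 1, control replicate 1 and TSC1 mutant replicate 3, and the groups overlapped. Counting error was small beside these differences. In control replicate 4, the library with the fewest reads, the exact 95% binomial interval was 37.8 to 37.9%. From the highest share to the lowest, the gaps between neighbours were at most 2.30 percentage points except for 1 gap of 5.69 points, between TSC1 mutant replicates 4 and 3. TSC1 mutant replicate 5, control replicate 2 and TSC1 mutant replicate 2 followed each other with gaps of 0.106 and 0.00831 points, far below the SD within either genotype.

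**Figure D1:**
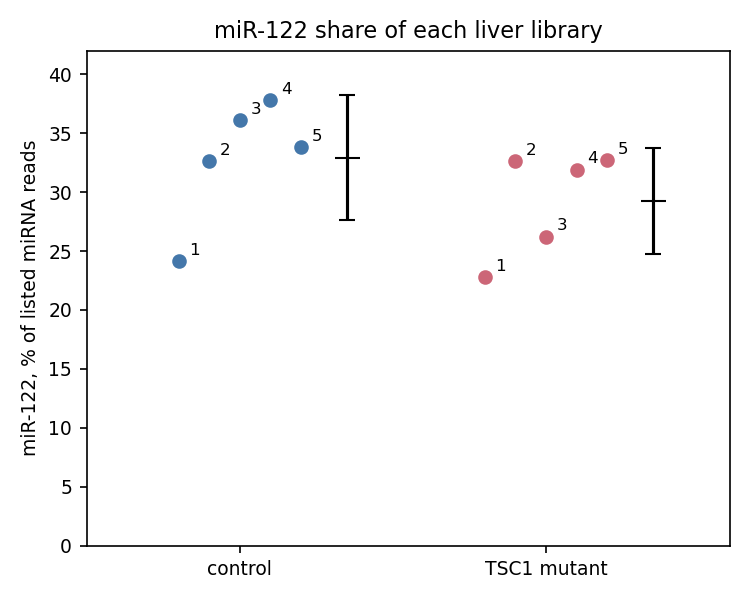
Share of miR-122 among the listed miRNA reads (vertical axis, %) in each liver library by genotype, with replicate numbers beside the points; bars are the mean ± SD of 5 libraries. The control libraries sit between 24.1 and 37.8% and the TSC1 mutant libraries between 22.8 and 32.7%, and the groups overlap.

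The question for the genotypes is whether the hepatocyte miRNA changes when Tsc1 is lost, and a difference was not shown. The mean share was 32.9 ± 5.30% in controls and 29.3 ± 4.52% in mutants (SD, n = 5 per genotype). The difference of -3.64 ± 3.12 percentage points (SE) was within the spread between libraries (2-sided exact permutation p = 0.254, where the smallest p of this design is 0.00794). In normalised reads miR-122 stood at 2058421, 2814627, 3735593, 3964052 and 3299818 in control replicates 1 to 5. The mutant values were 2082960, 3019462, 2372402, 2970807 and 3054136 in replicates 1 to 5. The 3 highest values of all were controls, and the lowest of all was also a control.

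On the log2(normalised value + 1) scale the fold change of miR-122, mutant over control, was -0.21 ± 0.19 (SE), with a 95% interval of -0.63 to 0.20 and a limma adjusted p of 0.608. On the linear scale this is 0.863-fold, with an interval of 0.646 to 1.15. The interval thus holds both a fall to that lower bound and a small rise. As background, 37 of the 285 miRNAs passed the threshold of an adjusted p of 0.05, or 13.0%, of which 10.9% were higher and 2.11% lower in mutants. The values of the genotypes did not overlap for 12.6% of the miRNAs.

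The ratio of miR-122 to the sum of the other listed miRNAs needs no scaling of the library. It was 0.497 ± 0.111 in controls and 0.418 ± 0.0877 in mutants (SD, n = 5 per genotype). The log2 ratio differed by -0.24 ± 0.22 (SE), with a 2-sided exact permutation p of 0.262. Control replicate 1 mattered most for these 2 values. Without it the share difference was -5.84 points and the log2 ratio difference -0.40, each with an exact permutation p of 0.0317. The limma fold change without it was -0.36 with an adjusted p of 0.129. Without both replicates 1 the share difference was -4.22 points and the exact permutation p was 0.0571, with 0.0286 the smallest possible. Without TSC1 mutant replicate 1 alone it was -2.02 points, with an exact permutation p of 0.508.

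The miR-122 level moved more between libraries than the sum of everything else in the library. Its normalised reads had a coefficient of variation of 21.8% over the 10 libraries, against 5.05% for the sum of the 284 other miRNAs. That sum ranged from 5809212 in control replicate 2 to 7061673 in TSC1 mutant replicate 1, a 1.22-fold range, while miR-122 spanned 1.93-fold. The sum was 6373377 ± 320702 in controls and 6515234 ± 350937 in mutants (SD, n = 5 per genotype; exact permutation p = 0.540). Without both replicates 1 the coefficients of variation were 16.1% for miR-122 and 4.28% for the sum, the ranges 1.67-fold and 1.15-fold, and the exact permutation p of the sum 0.943. Without control replicate 2 as well they were 16.5% and 2.60%, 1.67-fold and 1.07-fold, with an exact permutation p of 0.286. Part of the contrast between miR-122 and the sum was built in. Between libraries the deposited factors followed median ratios of the listed miRNAs within 0.047 on the log2 scale. Such factors hold the level of most miRNAs steady, and a sum evens out single miRNAs. Among single miRNAs the spread of miR-122 was moderate. Its log2 SD within genotypes was 0.32, the median over all miRNAs was 0.44, and 196 of the 284 others had a larger one. Among the 183 others whose mean reached 100 normalised reads the median was 0.38, and 106 had a larger one. Of the 8 next most abundant miRNAs, 5 had a smaller SD than miR-122, down to 0.15 for miR-148a.

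**Figure D2:**
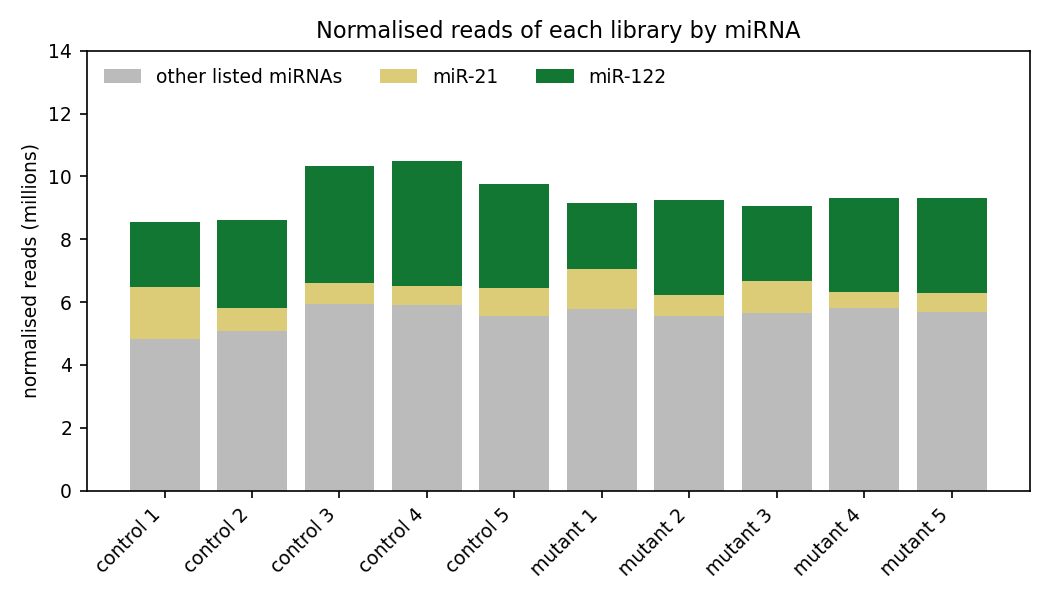
Normalised reads (vertical axis) of each library, stacked as miR-122, miR-21 and the other listed miRNAs. The miR-122 segment is smallest in control replicate 1 and TSC1 mutant replicate 1, where the miR-21 segment is largest.

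MiR-21, which is expressed in many cell types and rises in injured and growing tissue, was the next most abundant miRNA in 5 libraries. In the other 5 it was miR-192, a miRNA of liver and gut epithelium. MiR-21 took 19.5, 8.53, 6.37, 5.68 and 9.31% of reads in control replicates 1 to 5. It took 13.9, 7.18, 11.4, 5.80 and 6.49% in TSC1 mutant replicates 1 to 5. The 3 libraries with the highest miR-21 share were the 3 with the lowest miR-122 share, control replicate 1 and TSC1 mutant replicates 1 and 3. MiR-122 exceeded miR-21 by 1.24-fold in control replicate 1 and by 6.67-fold in control replicate 4. Shares of 1 library sum to the whole, so they are not independent of each other. Normalised miR-21 differed 3.08-fold between libraries, and 1.92-fold without both replicates 1. Its log2 fold change between genotypes was -0.12 (SE 0.31; limma adjusted p = 0.917), and it was at 0.12 without control replicate 1.

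The let-7 miRNAs, which hold back growth and stem cell programmes, were lowest in both replicates 1. Counted together, let-7 members took 7.49% of reads in control replicate 1 and 10.5% in TSC1 mutant replicate 1. In the other controls they took 12.2 to 15.6% and in the other mutants 14.6 to 16.9%. TSC1 mutant replicate 3, with its low miR-122 share, was at 14.6%. This was the lowest of the other mutants but lay within the range of the other controls. MiR-122 and the 8 next most abundant miRNAs together made up 69.8 to 74.6% of reads in each library. MiR-192 held a steadier place, with 765826 ± 122944 normalised reads in controls against 755093 ± 31849 in mutants (SD, n = 5 per genotype). MiR-148a took 5.93 ± 0.811% and 6.34 ± 0.717% of reads, and miR-30a 4.78 ± 0.978% and 5.27 ± 1.01% (SD, n = 5 per genotype).

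The share of miR-122 sets how many reads remain for the other miRNAs. On the log2 scale the part of a library left to them was -0.69 in control replicate 4 and -0.37 in TSC1 mutant replicate 1, the extremes. Any miRNA with an unchanged amount relative to the rest would thus differ by that gap between these libraries when given as a share of reads. Between genotypes the gap was small, at -0.58 ± 0.11 in controls and -0.50 ± 0.091 in mutants (SD, n = 5 per genotype), a difference of 0.077 ± 0.064 (SE; 2-sided exact permutation p = 0.246). Scaling to equal totals of listed reads put the median log2 fold change of the other 284 miRNAs at -0.011. With miR-122 left out of the total it was -0.087, a shift of -0.077. The deposited scaling, at -0.056, lay between them.

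Few calls differed between the scalings. As deposited, 31 miRNAs were higher and 6 lower in mutants, with equal totals 30 and 6, and with equal totals of the reads other than miR-122 30 and 8. Of the 37 calls as deposited, 34 were also made with equal totals and 36 with miR-122 left out. The share of other miRNAs with a fold change above 0 was 42.6% as deposited, 48.2% with equal totals and 38.4% without miR-122 in the total. The calls of 6 miRNAs differed between the 3 scalings, 4 of them between equal totals with and without miR-122. The calls of all 6 also changed under alternatives other than scaling.

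The most abundant of these was let-7g, at 256368 ± 44826 normalised reads in controls against 336163 ± 26067 in mutants (SD, n = 5 per genotype). Its log2 fold change was 0.45 with equal totals, with a limma adjusted p of 0.0124, so there it passed as higher. As deposited it was 0.41, with a limma adjusted p of 0.0867, and with miR-122 left out of the total 0.38, with a limma adjusted p of 0.141. As a share of reads let-7g lay between 2.17 and 2.83% in controls and between 3.17 and 3.86% in mutants, without overlap. In deposited values it did overlap, with 292309 the highest control and 289614 the lowest mutant. How many of all miRNAs did not overlap was counted in deposited values only, not as shares. Let-7g passed in 6 of 23 alternatives. MiR-29a, a repressor of collagen genes, passed as deposited at 0.34 (limma adjusted p = 0.0395). It missed the threshold at 0.38 with equal totals (limma adjusted p = 0.0588) and at 0.30 without miR-122 in the total (limma adjusted p = 0.0662), and it passed in 9 of 23 alternatives. The others were less abundant. Of the 3 scalings, miR-137 and miR-582-3p missed the threshold with equal totals. They passed in 12 of 23 and 13 of 22 alternatives, with limma adjusted p up to 0.108 and 0.0996. MiR-574-3p passed as lower in both scalings to equal totals and miR-1968 only with miR-122 left out, and neither did as deposited. These passed in 7 of 23 and 6 of 23 alternatives. The log2 fold changes as deposited were 0.90 for miR-137, -1.24 for miR-582-3p, -0.78 for miR-574-3p and -0.59 for miR-1968.

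Whether the listed hepatocyte miRNAs are confined to hepatocytes was not tested. Among them, 10 names were found in the table, miR-122 included. Of these 1 rose, which was miR-802, and 0 fell, and the list had a median of -0.019 on the log2 fold change scale, against -0.056 over all 285 miRNAs. Over all miRNAs 10.9% were higher and 2.11% lower, so 1 of 10 is near the background. MiR-802 is known to impair glucose metabolism in obese mice. Its values were 408, 427, 644, 691 and 307 normalised reads in control replicates 1 to 5. In mutant replicates 1 to 5 they were 1861, 1289, 1545, 1890 and 1329. Every mutant lay above every control, and the log2 fold change was 1.72 (SE 0.24; limma adjusted p = 0.000258). MiR-122 thus exceeded miR-802 by a different factor in each genotype, and the SD of the log2 ratio of the pair over the 10 libraries was 1.10.

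Of the abundant hepatocyte miRNAs, miR-192, miR-194, miR-148a and miR-101a had fold changes close to 0 on the log2 scale. MiR-192 was at -0.0054 and miR-194, from the same clusters, at -0.033. Both signs turned when values were scaled to equal totals. MiR-148a, which lowers the LDL receptor, was at 0.055 and miR-101a at 0.094. MiR-101b was further from 0, at 0.40 with a 95% limma interval of -0.16 to 0.96. None of these passed the threshold. The scarcer members scattered more widely. MiR-455 was at -1.37 ± 0.58 (SE; limma adjusted p = 0.179), miR-365 at -0.66 ± 0.44 and miR-193 at -0.044 ± 0.47. MiR-455 passed as lower without control replicate 1, at -1.86 (limma adjusted p = 0.0155), and without both replicates 1, at -1.46 (limma adjusted p = 0.00424). The replicate block and array weights also gave the call, so it passed in 4 of 23 alternatives. In both genotypes replicate 1 had the lowest miR-122 and the highest miR-101a, miR-101b and miR-193 in normalised reads. MiR-455 was lowest there, like miR-122, and the other listed members did neither in both genotypes.

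**Figure D3:**
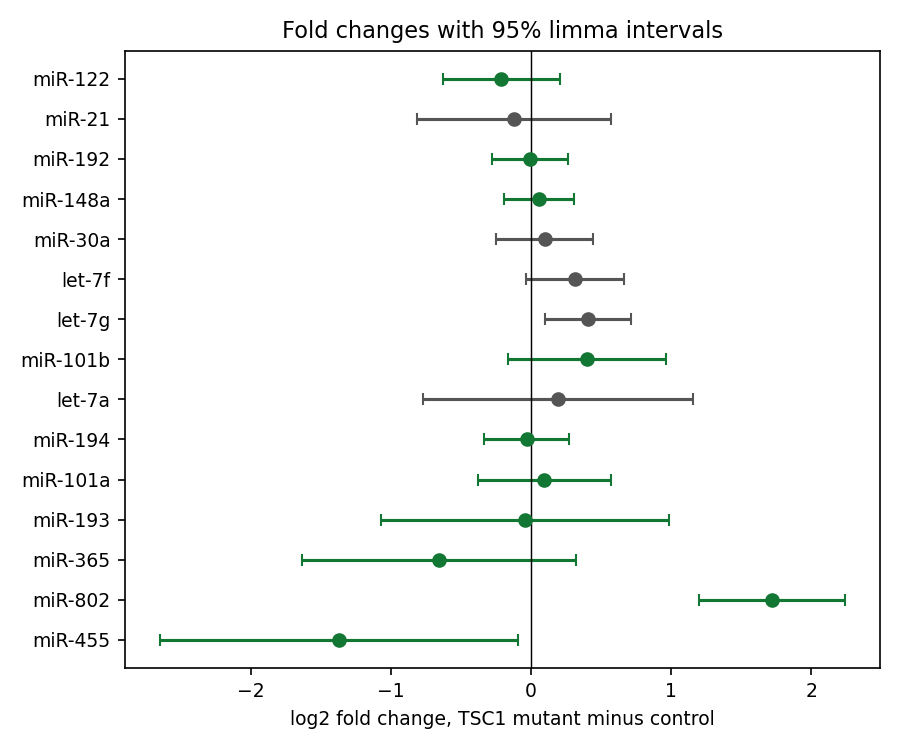
Log2 fold changes (horizontal axis, TSC1 mutant minus control, on the log2(normalised value + 1) scale) with 95% limma intervals for miR-122, the 8 next most abundant miRNAs (grey where not in the hepatocyte list) and the hepatocyte list (green). MiR-122 is at -0.21 with an interval that spans 0, and miR-802 stands apart at 1.72.

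Likeness to miR-122 was measured as the SD over the 10 libraries of the log2 ratio of a miRNA to miR-122, which does not depend on scaling. It was ranked over the 183 other miRNAs whose mean reached 100 normalised reads. The steadiest was miR-30d, with an SD of 0.11. MiR-122 exceeded it 27.1-fold on average, and between 23.7-fold and 31.0-fold in single libraries, although miR-122 itself spanned 1.93-fold. Without both replicates 1 the SD of miR-30d was 0.097 and it still ranked 1. Without control replicate 2 as well its SD was 0.10 and it ranked 3. Next came miR-28 with an SD of 0.14, then miR-335-5p and miR-139-3p with 0.15 each, and miR-25 and miR-221 with 0.16 each. The median SD was 0.51. Without both replicates 1 the median was 0.35 and 4 of these 6 were still among the first 6, and without control replicate 2 as well 2 of them were, miR-28 and miR-30d. These 6 miRNAs come from different clusters, and none is on the hepatocyte list.

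The ranked hepatocyte miRNAs lay on both sides of the median SD of 0.51. None was among the steadiest ratios, which were picked from these same values. MiR-192 ranked 24 of 183 with an SD of 0.24, miR-194 ranked 53 and miR-148a ranked 66. MiR-101a had an SD of 0.64, miR-101b ranked 132, miR-455 ranked 145, miR-365 ranked 151 and miR-802 ranked 155. MiR-21 ranked 134, with an SD of 0.82. MiR-30a, which has the seed shown above, ranked 90 with an SD of 0.50. Without both replicates 1, miR-192 had an SD of 0.17 and ranked 13, miR-21 one of 0.48, miR-30a one of 0.29 and miR-802 one of 1.06.

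**Figure D4:**
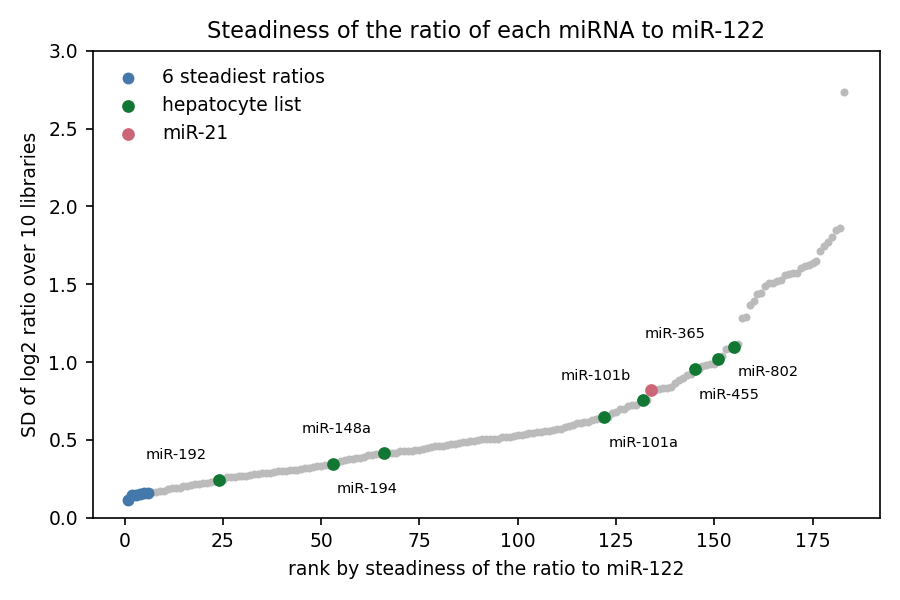
SD over 10 libraries of the log2 ratio of each miRNA to miR-122 (vertical axis) by rank (horizontal axis) for the 183 other miRNAs whose mean reached 100 normalised reads. The 6 steadiest ratios lie between 0.11 and 0.16, while the ranked members of the hepatocyte list run from 0.24 for miR-192 to 1.10 for miR-802.

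Markers of other cells gave the setting of these values. In bulk liver, fewer hepatocytes and less miR-122 per hepatocyte cannot be told apart. No member of the leukocyte, erythroid, endothelial, stellate and smooth muscle, biliary, striated muscle or neural lists passed the threshold, 0 of 26 rows against 13.0% of all miRNAs. Among the 5 leukocyte names, all were found, as 6 rows, and their sum was 17134 to 28912 normalised reads in controls and 16364 to 22201 in mutants. It was highest in control replicate 1. The endothelial miR-126, as 2 arms, summed to 113035 to 160119 in controls and 114892 to 160253 in mutants. The 5 rows of stellate and smooth muscle miRNAs gave 164279 to 363788 in controls and 131317 to 243057 in mutants. On geometric average miR-122 exceeded the leukocyte sum 148-fold in controls and 140-fold in mutants, and the endothelial sum 21.4-fold and 18.9-fold.

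The 5 biliary rows summed to 4996 to 35789 normalised reads in controls and 3126 to 7014 in mutants, and the 3 striated muscle rows to 268 to 5638 and 151 to 919. The highest sum of both was in control replicate 2, and the part of other tissue in its miR-122 share was not tested. Without that library the share difference was -3.71 points, close to that with it. The 3 erythroid rows summed to 3886 to 5924 in controls and 3431 to 6533 in mutants, and the 2 neural rows to 66.4 to 175 and 56.6 to 93.0. Of the exocrine pancreas names 0 of 2 were found. Other names without a row were miR-133b and miR-208 of striated muscle and miR-124 of the neural list.

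A list of miRNAs linked to hepatic lipid metabolism, a process in which miR-122 itself acts, had 9 rows. Of these 1 rose and 0 fell, and the median on the log2 fold change scale was 0.086. This count is near the background of 10.9% higher and 2.11% lower. The one that rose was miR-370, which targets the fatty acid oxidation enzyme Cpt1a and has been reported to raise miR-122 in human hepatoma cells. It belongs to the Dlk1-Dio3 locus that the title of the series names, so its rise is not an independent result. It and miR-378 were chosen after their values were seen. Its level was 10.4 ± 4.20 normalised reads in controls against 37.3 ± 12.4 in mutants (SD, n = 5 per genotype), and the log2 fold change was 1.78 (limma adjusted p = 0.00235). MiR-378, which lies within the metabolic regulator gene Ppargc1b, was at 0.44 (limma adjusted p = 0.165) and passed in 1 of 23 alternatives, the replicate block (limma adjusted p = 0.0365).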

How the data were processed

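Small RNA was sequenced in 5 control and 5 TSC1 mutant liver libraries. The authors deposited 1 table of normalised signal, in which each read count is divided by its library's factor, and DESeq is named in the submitters' processing notes. Not given in the sources used here are the aligner, the miRNA annotation, the build and any filter. Each deposited value was a whole multiple of 1 step per library within 0.001 (100% of values), worth 0.711 to 1.68 normalised reads, which gave the read totals. Binomial intervals cover counting error only, since reads without molecular identifiers are not independent molecules. Nothing in the labels says that libraries came from separate animals beyond their replicate numbers, so p-values measure the spread between these libraries.

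Log2(normalised value + 1) was compared with limma 3.58.1 in R 4.3.3 (empirical Bayes with intensity trend, Benjamini-Hochberg over all 285 miRNAs, threshold 0.05, minimum mean 5 normalised reads, met by all 285); this scale understates changes of miRNAs with few reads. Single values per library were compared by exact permutation (scipy 1.17.1). The fit was tested on simulated data. Named were miR-122, the 8 next most abundant miRNAs, the hepatocyte list, the 6 steadiest ratios, and miRNAs whose call differed between the 3 scalings. MiR-122 and the lists were chosen with earlier results of these data known. Alternatives were other pseudocounts, filters, scalings and models, a replicate block, and left-out libraries; voom, leaving out both replicates 1 together leaving out miR-21, and the spread and ratios without the libraries that stood apart were added after the data were seen. Figures were drawn with matplotlib 3.10.9.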

Additional observations from a re-analysis of the deposited data

Results flagged for a closer look

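Among 62 sets of 5 values, 6 had a value far from the rest by its gap to the nearest. For independent sets of normal values chance would give about 3.1. These sets come from the same 10 libraries and include miRNAs picked for their steady ratio to miR-122, so that figure is a rough guide only. For the sum of the miRNAs other than miR-122 the value far from the rest was control replicate 2. It was the lowest control, at 5809212 normalised reads with the next at 6459989. Control replicate 1 exceeded the other controls in miR-193, with 137 against 46.2 normalised reads, and fell short of them in miR-25, with 14500 against 20153. The let-7g value of TSC1 mutant replicate 1 was below those of the other mutants, with 289614 against 345209, as was its miR-335-5p, with 395 against 592. Its miR-101a lay above theirs, with 261431 against 174971. The share and the ratio of miR-122 itself had no such value in either genotype.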

How the results depend on the processing

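The log2 fold change of miR-122 kept its direction and missed the threshold under all 23 alternatives, from -0.36 to -0.12, with limma adjusted p from 0.113 to 0.845. Leaving out 1 library at a time put the share difference at -5.84 to -2.02 points and the log2 ratio difference at -0.40 to -0.13; each passed only without control replicate 1 (exact permutation p = 0.0317). The count of miRNAs higher in mutants was 19 with a minimum mean of 100, 40 with array weights and 28 to 34 with 1 library left out. That minimum left only miR-122 and 183 other miRNAs to test, so its counts are out of fewer miRNAs than the counts as deposited. The count lower was 3 with that minimum, 23 with array weights, 10 with the replicate block, 11 without both replicates 1 and 2 to 10 with 1 library left out. The median of the other miRNAs was -0.011 with equal totals, -0.087 with equal totals without miR-122 and -0.013 with voom. The shift of -0.077 between equal totals with and without miR-122 is arithmetic, since only the total of each library differs. The cause of the other moves was not tested.

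Signs turned only for miRNAs that missed the threshold as deposited. With equal totals, miR-192 was at 0.040 and miR-194 at 0.013; with TMM, miR-192 was at 0.0070. With array weights miR-148a was at -0.033, miR-30a at -0.0023, miR-194 at 0.020 and miR-193 at 0.12. With voom miR-192 was at 0.040, miR-194 at 0.016 and miR-193 at 0.0070, and without both replicates 1 miR-193 was at 0.059. With 1 library left out the ranges were -0.30 to 0.12 for miR-21, -0.099 to 0.048 for miR-192 (-0.11 without both replicates 1), -0.0042 to 0.089 for miR-148a, -0.0068 to 0.17 for miR-30a and -0.19 to 0.48 for let-7a. They were -0.12 to 0.075 for miR-194, -0.063 to 0.25 for miR-101a, -0.30 to 0.32 for miR-193, -0.26 to 0.018 for miR-30d, -0.22 to 0.0064 for miR-335-5p, -0.16 to 0.035 for miR-25 and -0.20 to 0.037 for miR-221.

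Same-numbered libraries had correlations of their deviations of 0.81, 0.16, -0.021, 0.46 and 0.048. Libraries of different numbers were not compared, so these values cannot show whether the numbers pair them. The main tests did not treat them as pairs. In share of reads miR-122 was lower in the mutant than in the control of the same number for all 5 numbers. In normalised reads, replicates 1 and 2 went the other way. With the replicate block miR-122 was at -0.21 (limma adjusted p = 0.283), the share and the log2 ratio each had an exact permutation p of 0.0625, the smallest that 5 pairs allow, and 35 miRNAs were higher and 10 lower. The planned edgeR test was not run, because the whole reads recovered from the normalised values could not be checked on 100 low values in each library. The read totals, the binomial interval and voom rest on the same recovery.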

Other observations

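MiR-122 and miR-21 counted together took a narrower range of the library than either did alone. Their joint share was 43.6, 41.2, 42.5, 43.5 and 43.1% in control replicates 1 to 5 and 36.7, 39.8, 37.7, 37.7 and 39.2% in TSC1 mutant replicates 1 to 5. The genotypes did not overlap, at 42.8 ± 1.01% and 38.2 ± 1.27% (SD, n = 5 each). The pair was chosen after its values were seen, so no test is given. How many other pairs of miRNAs would also separate the genotypes was not counted, and shares of 1 library are not independent of each other.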
